A study of Homo sapiens with 16 samples.

Results

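The regions described here are 2184 bins of 100 kb that sent the smallest part of their contacts with other chromosomes to the small gene-rich chromosomes 16, 17, 19 and 20. They were chosen among 21906 bins of chromosomes 1 to 12, 14, 15 and 21 (build hg19). For each bin the percentage of its trans signal, meaning balanced Hi-C signal shared with other chromosomes, that went to those 4 chromosomes was computed at 12 h of digestion, with 2 libraries summed. This percentage is called the gene-rich trans share. The members are the bins in the lowest 10% of it within their own chromosome.

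The samples came from K562, an established human line of leukaemia cells with many rearranged chromosomes. Fixed chromatin was cut with the restriction enzyme HindIII for 0.25, 1, 3 or 12 h, ends were marked with biotin and ligated in the nuclei, and ligated pairs were sequenced (Hi-C). No group carried a treatment or genotype of its own, so the labels separate the groups by digestion time alone. Each time had 2 replicates, each sequenced in 2 runs, and nothing in the labels says whether the replicates were separate cultures. The second run, in 20 kb bins, gave 62777974 to 176412360 contacts per library and is used unless stated. Depth was larger at 12 h (153465795 and 176412360 contacts) than at 0.25 h (62777974 and 114338126 contacts), so depth and time moved together, and the part of depth in differences between times was not tested.

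In interphase nuclei each chromosome occupies a territory, and contacts between territories are rarer than contacts within one. Active, gene-dense chromatin and silent, gene-poor chromatin also tend to keep apart, which Hi-C shows as 2 classes of bins, known as compartments, that contact their own class more often. Small gene-dense chromosomes are known to lie near the nuclear centre and to contact each other often, while long gene-poor segments are found more often at the nuclear edge.

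At 12 h the median gene-rich trans share was 6.30% and 6.24% in members (replicates 1 and 2) and 10.3% and 10.4% in the other 19722 bins. These values chose the members and are given as a description. The share at which a bin became a member differed between chromosomes, from 5.95% on chromosome 4 to 9.79% on chromosome 15. On chromosome 1 the last bin inside, chr1:72400001-72500000, and the next bin outside, chr1:236300001-236400000, both had 6.71% at 12 h. In the 6 libraries of 0.25, 1 and 3 h, which took no part in the choice, they averaged 9.55% ± 1.62 and 7.21% ± 1.23 (SD, n = 6), so the bin outside lay lower than the bin inside there.

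The low share was also seen in those 6 libraries. At 0.25 h the members' median was 7.52% in replicate 1 and 7.75% in replicate 2, against 10.5% and 10.6% in other bins. The 1 h replicates had medians of 7.44% and 7.51% and the 3 h replicates 7.44% and 7.47%, against 10.5% in other bins in each of those 4 libraries. Members minus others was -2.99 ± 0.0899 percentage points (SD, n = 6), and members were lower in 6 of 6 libraries on each of the 15 chromosomes. The difference was largest on chromosome 21, at -5.84 points, and smallest on chromosome 4, at -1.65 points. On chromosome 21, 22 of 35 members had at least 20% of their trans signal at 12 h with 1 chromosome outside the rule. On chromosome 10, at -5.18 points, this held for 56 of 130 members. Chromosomes 9 and 15, with 0 such members, had -4.90 and -4.75 points. Ranges of single bins overlapped: the middle 80% of members spanned 5.74% to 9.53% in 3 h replicate 1, and the middle 80% of other bins spanned 7.24% to 16.9%.

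**Figure D1:**
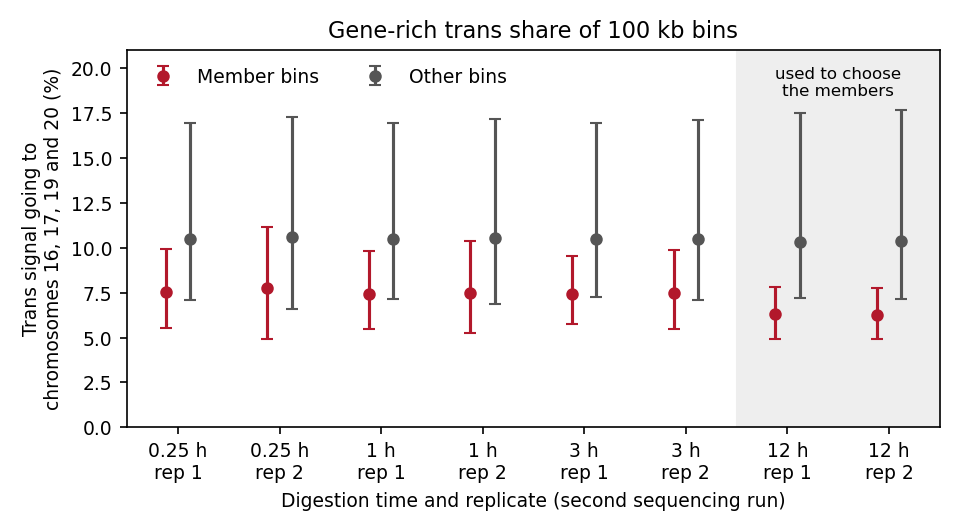
Gene-rich trans share of 100 kb bins (y axis, percent of trans signal) in each library of the second run (x axis). Points are medians, bars span the lowest to the highest 10% of bins, and the shaded 12 h libraries chose the members. The members' medians lie between 7.44% and 7.75% in the 6 unshaded libraries, and those of other bins between 10.5% and 10.6%.

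Membership of a single bin was less stable than the median. With the 6 libraries summed, 2143 of 2184 members (98.1%) lay below the median of their chromosome, 1659 (76.0%) in its lowest 20%, and 1082 (49.5%) in its lowest 10%. Members chosen on 12 h replicate 1 alone and on replicate 2 alone shared 919 bins, 42.1% of either list. Bins chosen on replicate 1 had a median of 6.04% there and 7.01% in replicate 2, beside 7.52% to 7.75% in the 6 libraries of shorter digestion. Bins chosen on replicate 2 had 5.92% there and 7.08% in replicate 1. Few contacts stood behind a single bin: the median member rested on 24 to 58 contacts with the 4 chromosomes per library at the shorter times, and on 73 and 62 at 12 h.

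Change of the gene-rich trans share within bins was tested with limma (log2 of percent + 1, Benjamini-Hochberg over 21897 bins, 6 libraries). At 3 h against 0.25 h, 0 of 2183 members tested passed an adjusted p of 0.05, with 0% of all bins called. At an unadjusted p of 0.05, 102 members and 1049 of all bins passed. At 1 h, 0 members passed, with 0.00457% of all bins called, and 128 members beside 1328 of all bins passed unadjusted. The median log2 change of members was -0.02 at both times. The 12 h libraries were left out, since they chose the members.

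The 5 members with the lowest share show how the choice acted on single bins. The lowest was chr2:221400001-221500000, with 3.21% of signal at 12 h. Its 1333 recovered trans contacts held 56 with the 4 chromosomes, 4.20% (95% Wilson interval 3.25% to 5.42%, counting error only). In the 6 other libraries its share averaged 5.71% ± 3.11 and ran from 3.08% in 1 h replicate 2 to 11.6% in 0.25 h replicate 2. The next lowest, chr4:160700001-160800000, had 3.57% at 12 h and 8.36% ± 3.41 in the 6 libraries. The third, chr2:213500001-213600000, had 3.60% and 7.52% ± 2.25. The fourth, chr7:144000001-144100000, had 3.64% and 6.29% ± 1.25. The fifth, chr4:176500001-176600000, had 3.78% and 6.89% ± 2.40 (SD, n = 6 for each). In each of the 5 the mean of the 6 libraries was higher than the 12 h share that selected the bin.

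The chromosomes that members contacted were then compared, with the 4 chromosomes of the rule left out of the trans signal and the 12 h libraries left out of the data. For 19 partner chromosomes the members' median share was divided by that of the other bins. Chromosome 22 was farthest below 1, with a mean ratio of 0.526 ± 0.0137 (SD over 6 libraries, range 0.506 to 0.542). With the 6 libraries summed its ratio was 0.577, above that whole range, so the SD does not cover all uncertainty of the ratio. In the summed libraries the members' median share of all trans signal with chromosome 22 was 0.809%. The median member held 394 to 958 trans contacts per library, so single-library values for this partner rest on few contacts per bin. Chromosomes 15 (0.804 ± 0.0100), 21 (0.821 ± 0.00660) and 9 (0.848 ± 0.0109) followed. Chromosome X had the highest ratio, 1.19 ± 0.00589, then chromosome 4, 1.16 ± 0.00644, chromosome 13, 1.10 ± 0.00679, chromosome 2, 1.08 ± 0.00452, and chromosome 8, 1.07 ± 0.0109. Each of these 9 partners lay on the same side of 1 in 6 of 6 libraries.

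By genes per full chromosome length, the name gene-rich describes these partners only in part. Chromosome 18, among the poorest in genes with 0.346 protein-coding genes per 100 kb, had a ratio of 0.928 ± 0.00641, and chromosome 21, with 0.496, had 0.821. Chromosome 11, with 0.963 genes per 100 kb the richest of the 19 by this measure, had 0.972 ± 0.00627. Chromosome 22 had 0.877 genes per 100 kb. Over the 19 partners the ratio (6 libraries summed) had a Spearman's rho of -0.47 with gene density and of 0.62 with chromosome length, while length and density had a rho of -0.02. Pearson's r was -0.48 and 0.61. The 5 shortest partners, chromosomes 14, 15, 18, 21 and 22, all had ratios below 1 (0.577 to 0.958 in summed libraries), and 7 of the 8 longest had ratios above 1, with chromosome 1 at 0.938 as the exception. Without chromosome 22 the rho was -0.39 with density and 0.56 with length (n = 18). Partner shares of a bin add up to 100%, so these points are not independent, and the correlations are descriptions. Gene numbers came from RefSeq's GRCh38.p14 annotation, divided by full hg19 length, with bins that hold no signal included. This lowers the density of chromosomes with long absent runs, such as 14, 15 and 21 (19, 20 and 9.4 Mb). Densities over bins with signal were not computed, so the order of partners by density may differ there.

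**Figure D2:**
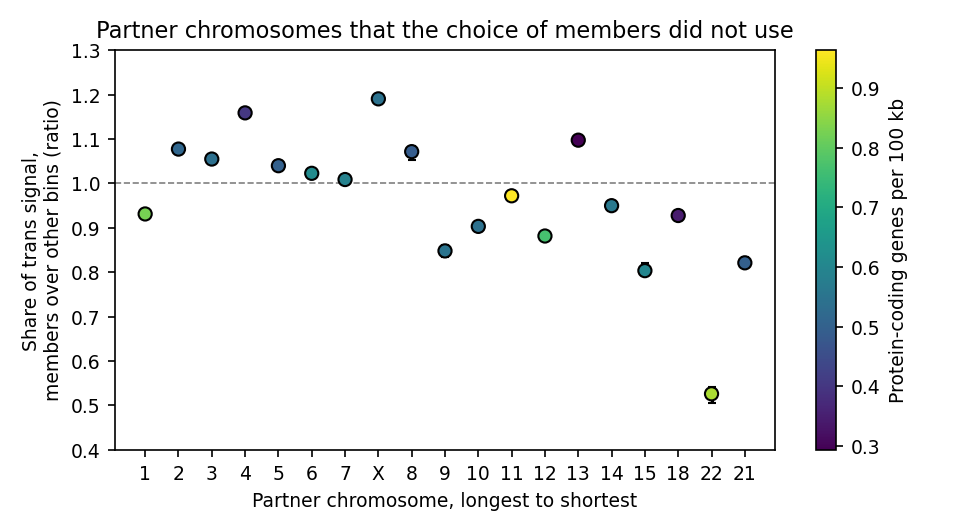
Share of trans signal that members sent to each partner chromosome, over that of other bins (y axis, ratio), for 19 partners from longest to shortest (x axis). Points are means over the 6 libraries of 0.25, 1 and 3 h, bars run from the lowest to the highest library, and colour gives protein-coding genes per 100 kb. Chromosome 22 lies at 0.526 (0.577 with the 6 libraries summed), chromosomes 18 and 21 lie at 0.928 and 0.821, and chromosome X lies at 1.19.

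Members lay far from centromeres. On the 12 chromosomes with 2 arms their median distance from the longest run of absent bins, which holds the centromere, was 67.8 Mb, against 39.6 Mb for other bins, and it was longer for members on 12 of 12 chromosomes. Within 20 Mb of that gap 72 of 4604 bins (1.56%) were members, from 20 to 40 Mb 169 of 4663 (3.62%), from 40 to 60 Mb 528 of 3754 (14.1%), from 60 to 80 Mb 527 of 2954 (17.8%), and beyond 80 Mb 685 of 3888 (17.6%). The rule did not use position.

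Long arms held 1704 of 1981 members of these chromosomes (86.0%) and 64.0% of their bins. Chromosome 3 was the exception, with 35 of 195 members (17.9%) beyond the gap against 53.5% of its bins. Most of its members before the gap had chromosome 10 as leading partner. The leading partner here is the chromosome outside the rule with the most trans signal at 12 h. At equal distance the arms also differed. From 20 to 40 Mb members made up 1.10% of short-arm bins and 6.03% of long-arm bins, from 40 to 60 Mb 5.76% and 18.8%, and beyond 80 Mb 7.09% and 19.7%. From 60 to 80 Mb, a distance that the short arms of 3 chromosomes reach, the values were 17.2% and 18.0%. Most short-arm members there were bins of chromosome 3 with chromosome 10 as leading partner. Many of these bins also count in the low-class value at that distance, given below. The class of bins defined by cis contacts, described further on, moved with this: beyond 80 Mb 23.3% of short-arm bins and 44.8% of long-arm bins were of the low class. Among low-class bins alone members made up 2.76% in short arms and 11.03% in long arms from 20 to 40 Mb, 17.1% and 29.7% from 40 to 60 Mb, 34.5% and 29.9% from 60 to 80 Mb, and 29.7% and 37.7% beyond 80 Mb. The long arms thus held the larger percentage at 3 of these 4 distances within the low class too. These comparisons differ in chromosomes: from 40 to 60 Mb they hold short arms of 10 and long arms of 12 chromosomes, and beyond 80 Mb 3 and 11. The values that follow cover all 15 chromosomes, of which 14, 15 and 21 had 100% of their bins beyond the gap. The median distance of members to the nearest chromosome end was 30.1 Mb, against 41.2 Mb for other bins. Members made up 100 of 2066 bins (4.84%) in the first 10% of chromosome length and 494 of 2327 bins (21.2%) in the last 10%. Within 2 Mb of an end lay 1.88% of members (41 bins) and 2.42% of other bins.

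**Figure D3:**
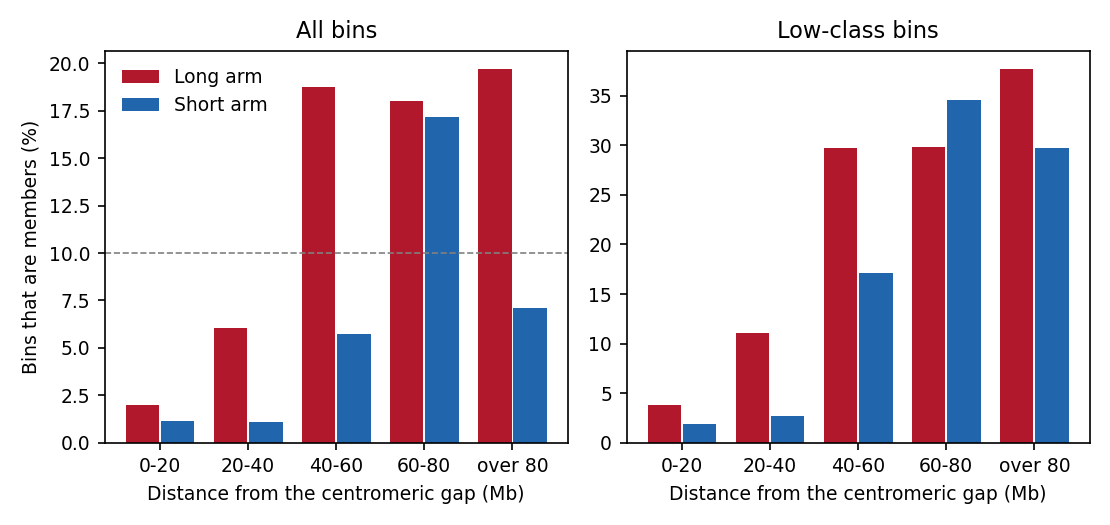
Percentage of 100 kb bins that are members (y axis) by distance from the centromeric gap in Mb (x axis), for long and short arms of 12 chromosomes. The left panel covers all bins, with a dashed line at 10%, and the right panel covers bins of the low class defined by cis contacts. In long arms the left bars run from 1.98% within 20 Mb to 19.7% beyond 80 Mb, and the right bars from 3.84% to 37.7%.

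Members were mostly of the compartment class that avoids gene-rich chromosomes. Each chromosome's bins were divided by the sign of the first eigenvector of its cis contact pattern at 0.25, 1 and 3 h. The low class was defined as the sign with the lower gene-rich trans share in those libraries, so its direction is not independent of the rule. Of 2183 members 2017 (92.4%) fell in the low class, against 48.8% of all bins, and the members' median percentile on the eigenvector was 17.6. The share in the low class ran from 84.0% on chromosome 4 to 100% on chromosome 9. On chromosome 9 the eigenvector followed position (Spearman's rho -0.67 over 1046 bins) and 76.0% of all bins were low. Without that chromosome, 92.0% of members and 47.4% of all bins were low.

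The class did not define the members by itself. In the lowest 10% of the eigenvector of their chromosome were 636 members (29.1%). For the gene-rich trans share itself, 49.5% of members were in the lowest 10% in the 6 libraries of shorter digestion summed. The 29.1% is to be read beside that value. Of low-class bins 2.84% were members within 20 Mb of the centromeric gap and 36.9% beyond 80 Mb, while the low class made up 52.0% and 41.3% of all bins at those distances. Low-class members had a gene-rich trans share of 7.63% ± 0.167, 7.47% ± 0.0527 and 7.44% ± 0.0354 at 0.25, 1 and 3 h (SD, n = 2 each). Low-class bins that were no members had 9.13% ± 0.0280, 9.12% ± 0.0926 and 9.06% ± 0.0279, and high-class bins had 12.0% at each time.

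Members formed blocks. Joining members with at most 1 other bin between them gave 733 blocks, of which 370 held a single bin, 118 held 5 or more and 40 held 10 or more. The 118 longer blocks held 1169 members (53.5%). The longest block on each chromosome held 8 to 56 members. Over the 6 libraries not used in the choice, the mean share of these 15 blocks was 6.13% to 8.86%, below the other bins of the same chromosome in 15 of 15. More than 90% of bins were low-class in 13 of the 15.

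The longest block, chr10:82300001-88100000, held 56 members. Its gene-rich trans share was 6.80% and 6.51% in the 0.25 h replicates, 6.95% and 6.80% in those of 1 h, 7.08% and 6.68% in those of 3 h, and 6.60% and 6.52% in those of 12 h, against a mean of 12.8% in other bins of chromosome 10 over the first 6. All 8 values lay close together, including those of the 12 h libraries. Chromosome 3 took 34.6% of this block's trans signal at the shorter times, so the block's share was low in a total that 1 partner filled in large part.

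Of the other chromosomes' longest blocks, chr7:144000001-148300000 had 37 members and a share of 7.08% ± 0.21, against 9.96% in other bins of that chromosome. The block chr5:163000001-167200000 had 35 members and 7.12% ± 0.32, against 11.2%. The block chr1:240200001-243100000 had 27 members and 6.98% ± 0.25, against 10.9%. The block chr9:104400001-107700000 had 26 members and 8.00% ± 0.34, against 12.9% (SD, n = 6 for each). In these 4 blocks the partner with the most signal, chromosome 1 or 2, took 8.1% to 9.6% of it, so no partner stood out.

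The longest blocks of chromosome 3, chr3:34200001-36900000 with 23 members, and chromosome 21, chr21:25500001-27000000 with 15, were again led by 1 partner, as given further on. On chromosome 15 the 22 members of chr15:97100001-99500000 had 8.86% ± 0.26, against 14.1%. The block chr2:228700001-231200000 had 21 members and the lowest mean of the 15, 6.13% ± 0.46, against 9.24%. On chromosomes 6 and 12, chr6:102100001-105000000 and chr12:85900001-88300000 had 21 members each, with 7.32% ± 0.65 and 7.94% ± 0.39. The remaining 4 were chr14:79100001-80700000 with 15 members, chr4:177200001-178700000 with 13, chr11:127000001-128200000 with 10 and chr8:111500001-112400000 with 8.

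For 139 members (6.36%) a single chromosome outside the rule took at least 20% of the trans signal at 12 h, against 319 other bins (1.62%). This contrast comes from the same 12 h trans signal that chose the members. Signal that goes to 1 such partner leaves less for the 4 chromosomes, so the contrast is a description. Of these 139, 56 bins of chromosome 10 were led by chromosome 3, 37 bins of chromosome 3 by chromosome 10, and 15 bins of chromosome 21 by chromosome 12. At 0.25, 1 and 3 h chromosome 10 took 21.7% of the trans signal of chr3:34200001-36900000, and chromosome 12 took 32.9% of that of chr21:25500001-27000000. Joining only the members led by 1 partner, with at most 1 other bin between them, also gave short stretches of 3 or 4 such members. Of these stretches 3 are named here, and a further stretch of 3 on chromosome 3, led by chromosome 10, is not. The leading partner was chromosome 10 for chr3:29300001-29900000 (18.9%), which lies among further members. It was chromosome 13 for chr21:14300001-14900000 (23.7%) and chromosome 22 for chr14:19000001-19600000 (41.5%). The last of these stretches had 40.4% to 48.6% of all its signal in trans, against a members' median near 10.7%.

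When each bin's leading partner was taken out of its trans signal and members were chosen again, 61 of the 139 (43.9%) and 2039 of all 2184 (93.4%) stayed members. A rearranged chromosome, or reads assigned to a similar sequence elsewhere, was not tested for any of these regions. Without the bins led by 1 partner, 17.5% of bins beyond 80 Mb from the gap were members and 1.40% of those within 20 Mb, and 87.8% of members lay in long arms. These values still hold the chromosome 3 members with chromosome 10 as leading partner below the 20% cut.

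Members kept more of their signal within their own chromosome than other bins. Their trans share, the percentage of all signal of a bin, had medians of 10.3% and 10.9% in the 0.25 h replicates, 10.7% and 10.8% in those of 1 h, 10.6% and 10.8% in those of 3 h, and 10.9% and 10.9% in those of 12 h. Other bins had 12.4% and 13.0%, 12.9% and 13.2%, 12.9% and 13.2%, and 13.6% and 13.8%. In the 6 libraries not used in the choice the members' median was lower in 6 of 6, with a mean difference of -2.26 ± 0.144 points (SD, n = 6), and the 12 h values are a description. Chromosome 3 went the other way, since its members had a trans share of 12.8% against 11.2% in its other bins (means of medians over 6 libraries). On chromosomes 10 and 21, which with chromosome 3 hold most of the bins led by 1 partner, members were lower by less than 1 point, 13.7% against 14.4% and 20.4% against 20.6%. Chromosome 7, with 0 such bins, had a similarly small difference, 12.9% against 13.7%.

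The cis signal of members reached farther than that of other bins, up to 10 Mb. Of the cis signal outside the bin itself, 32.2% ± 0.691 of the members' lay between 1 and 10 Mb, against 28.2% ± 0.878 in other bins (SD, n = 8), a difference of 3.97 ± 0.196 points, above 0 in 8 of 8 libraries. Signal within 1 Mb was lower, 53.3% against 56.3%, a difference of -3.01 ± 0.142 points. That difference lay in the nearest bins: within 200 kb members had 27.1% against 30.1%, and from 200 kb to 1 Mb 26.1% against 25.6%. From 10 to 20 Mb members had 6.37% against 6.25%, and beyond 20 Mb 7.97% against 8.48%.

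Low-class bins that were no members were close to members in this profile, with 31.7% of cis signal at 1 to 10 Mb. Against other low-class bins, low-class members differed by 0.619 ± 0.0668 points at 1 to 10 Mb and by -0.215 ± 0.0561 points within 1 Mb (SD, n = 8), each in the same direction in 8 of 8 libraries. Their trans share differed by -0.541 ± 0.0474 points in the libraries of 0.25, 1 and 3 h (SD, n = 6) and was lower in 6 of 6. The difference beyond 20 Mb, -0.0528 ± 0.0556 points, was smaller than its spread over libraries.

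The self share, the part of a bin's signal that stays inside its 100 kb, was lower at longer digestion in nearly all bins, members included. The members' median was 15.5% and 16.4% in the 0.25 h replicates, close to 15% in both of 1 h, 14.7% and 14.5% in those of 3 h, and 11.7% and 11.6% in those of 12 h. The replicates at 12 h lay below all 6 others, while those of 1 and 3 h lay close together. By limma on log2 self share (8 libraries, Benjamini-Hochberg over 21855 bins, adjusted p below 0.05), 2137 of 2179 members differed at 12 h against 0.25 h, 98.1%, with 97.1% of all bins called. The part of members called was close to that of all bins. Of the members 2135 fell, with 97% of all bins lower, and 2 rose, with 0.0412% of all bins higher.

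The members' median log2 change of self share was -0.44 and that of all bins -0.45, and 80% of members lay between -0.62 and -0.29. At 3 h 481 members were called (480 lower), 22.1% of those tested, with 22.9% of all bins called, and the median log2 change was -0.13 in both. The 3 h calls rested on single libraries: 0 members were called without either 3 h replicate (2 of all bins each time) or without 0.25 h replicate 2 (5 bins), and 1011 without 0.25 h replicate 1 (9413 bins), beside 5015 bins with all libraries. Without 12 h replicate 1 or 2, 204 and 203 members and 2382 and 2368 bins were called. Without 1 h replicate 1 or 2, 303 and 297 members and 3192 and 3126 bins were called, and in the first run alone 0 members and 3 bins. At 1 h 0 members passed, with 0.0137% of all bins called (0.00458% higher and 0.00915% lower), and 469 of 2179 members beside 5266 of 21855 bins passed at an unadjusted p of 0.05. Without 0.25 h replicate 1, 580 members and 5252 of all bins were called at 1 h.

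Members had a smaller self share than other bins in 8 of 8 libraries, with a mean difference of -0.853 ± 0.176 points. At 0.25 h it was 15.98% ± 0.653 against 16.9% ± 0.531, and at 12 h 11.6% ± 0.0890 against 12.3% ± 0.246 (SD, n = 2 each). Inside 20 kb bins, the deposited bin size, the self share was 8.38% ± 0.881 in members at 0.25 h and 4.41% ± 0.00330 at 12 h. The difference from other low-class bins was small, -0.287 ± 0.0696 points, and low-class members were lower in 8 of 8 libraries.

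**Figure D4:**
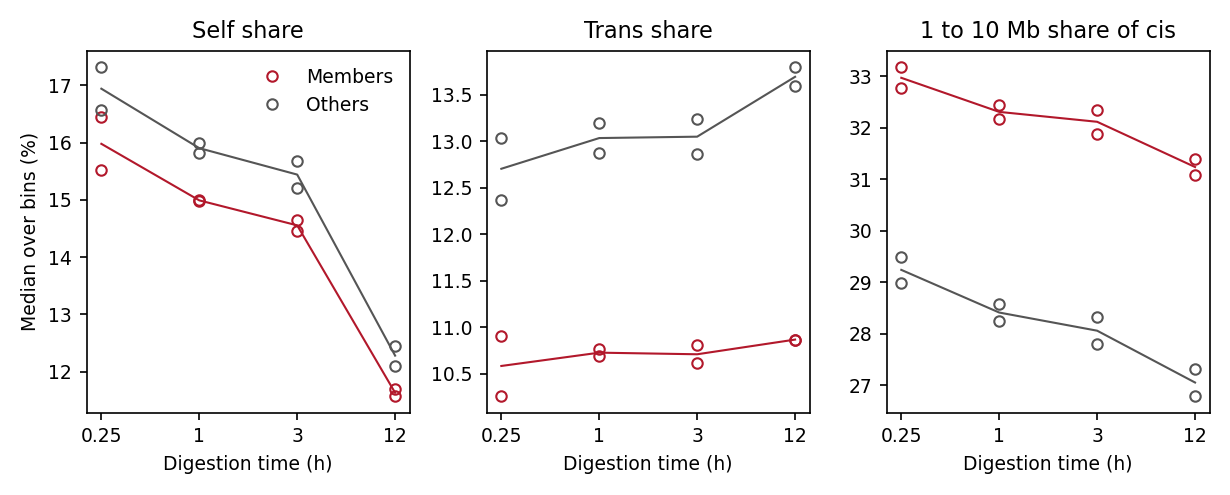
Median self share and trans share (percent of a bin's signal) and 1 to 10 Mb share (percent of cis signal outside the bin), on the y axes, by digestion time, drawn at even steps on the x axes. Circles are single libraries, lines join the means of 2 replicates, and the y axes do not start at 0. Members' self share goes from 15.98% to 11.6% beside 16.9% to 12.3% in other bins, and members' trans share goes from 10.6% to 10.9% beside 12.7% to 13.7%.

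The members with the largest falls of self share, by the rule for named bins, were chr8:122800001-122900000, chr5:98900001-99000000 and chr2:36000001-36100000. The first had 21.4% and 26.9% in the 0.25 h replicates, 19.7% and 20.03% in those of 1 h, 17.8% and 17.2% in those of 3 h, and 11.8% and 10.8% in those of 12 h, a log2 change of -1.09 ± 0.0890 (SE, limma adjusted p 2.26e-06). The second went from 18.0% and 22.1% at 0.25 h to 10.4% and 9.70% at 12 h, with a log2 change of -0.99 ± 0.0817. The third went from 20.7% and 25.6% to 11.5% and 11.7%, with a log2 change of -0.99 ± 0.0813, and both had the same adjusted p as the first. In all 3 both 12 h libraries lay below the other 6.

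Of the 2 members with a rise, 1 was thinly covered and 1 had most of its signal in trans. The bin chr10:17900001-18000000 had 1 of its 5 bins of 20 kb present and rested on 70 trans contacts at 12 h. Its self share was 2.33% and 10.0025% in the 0.25 h replicates, 20.9996% and 7.38% in those of 1 h, 18.0% and 10.9% in those of 3 h, and 10.9% and 17.1% in the 12 h replicates (log2 change 1.50 ± 0.55, limma adjusted p 0.0181). The bin chr21:9900001-10000000 had 6.71% and 4.80% in the 0.25 h replicates and 8.95% and 7.03% in those of 12 h (0.48 ± 0.209, limma adjusted p 0.0388). The second bin had 5 of 5 bins of 20 kb present and 6739 trans contacts at 12 h. Its trans share was 79.0% to 86.4% over the 8 libraries. Its leading partner at 12 h was chromosome Y, with 21.01% of its trans signal, so it is a bin led by 1 partner. Whether its reads were assigned to the right place was not tested, and its many contacts do not answer that. In the first bin the 12 h libraries lay above those of 0.25 h but among those of 1 and 3 h, and in the second both 12 h libraries lay above the other 6. These calls did not hold under all alternatives: 0 members rose in the first run or among bins with at least 3 of 5 bins of 20 kb, and 1 rose without 12 h replicate 1, without bins led by 1 partner, or inside 20 kb bins. Coverage of members in general was no lower than that of other bins, since 97.1% of members and 93.7% of other bins had 5 of 5 bins of 20 kb present.

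Trans share was lastly compared between times by limma. The contrast of 12 h with 0.25 h holds the libraries whose trans signal chose the members, so the members' counts beside those of all bins are a description. At 12 h against 0.25 h limma called 54 of 2183 members (2.47%), with 5.93% of all 21897 bins called. Of the members 48 rose, with 5.8% of all bins higher, and 6 fell, with 0.128% of all bins lower. The median log2 change was 0.05 in members, 0.10 in all bins, 0.07 in low-class bins that were no members and 0.13 in high-class bins. Of the low-class bins that were no members 3.02% were called higher and 0.173% lower, close to the members' 2.20% and 0.275%, and of the high-class bins 8.70% and 0.0634%. The calls rested on single libraries. Without 12 h replicate 1 or replicate 2, 0 members were called, without either 3 h replicate 3, and without 0.25 h replicate 2, 91. For all bins the counts were 11 and 9, 115, and 2349, and without a 1 h replicate 869 and 874 (37 members either way). Without 0.25 h replicate 1, 71 members were called, 32 higher and 39 lower, so the balance turned among members, while of all bins 970 were called, 756 higher and 214 lower, and the members' median log2 change was 0.01. In the first run alone 0 members and 5 bins were called. At 3 h 0 members passed, with 0% of all bins called, and 133 members beside 1731 of 21897 bins passed at an unadjusted p of 0.05. At 1 h 0 passed, with 0.00457% called, and 161 members beside 1689 bins passed unadjusted. Without 0.25 h replicate 1, 4 members were called at 3 h and 3 at 1 h, with 60 and 55 of all bins.

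Members contacted each other more often than the average pair of bins at the same distance. In cis that average took in pairs of all arms and classes, while long arms held 86.0% of members on the 12 chromosomes with 2 arms. No value was computed for other low-class bins. The part of same-arm or same-class contact in the cis values here and below was not tested. For pairs on the same chromosome at least 2 Mb apart, the observed signal over that expected for the distance was 1.42 and 1.40 in the 0.25 h replicates, 1.44 and 1.43 in those of 1 h, 1.46 and 1.44 in those of 3 h, and 1.50 and 1.47 in those of 12 h. It was above 1 on 15 of 15 chromosomes (means over 8 libraries), from 1.07 on chromosome 21 to 2.13 on chromosome 15. Beyond 20 Mb it was 1.59 ± 0.0203 at 0.25 h and 1.63 ± 0.0288 at 12 h (SD, n = 2 each), and at 2 to 5 Mb it was 1.38 ± 0.0119 and 1.46 ± 0.0155. Over all pairs at least 2 Mb apart both 12 h libraries were higher than the other 6. Beyond 20 Mb alone the times overlapped, although within each replicate number the 12 h library was the highest.

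Contacts between members on different chromosomes showed the same order. Observed over expected was 1.39 and 1.34 in the 0.25 h replicates, 1.40 and 1.37 in those of 1 h, 1.40 and 1.38 in those of 3 h, and 1.47 and 1.43 in those of 12 h, where expected means the average of all bins on the same pair of chromosomes. The trans signal at 12 h chose the members, so the 12 h values here are a description. Over the 6 libraries of shorter digestion it was 1.38 ± 0.0224 (SD, n = 6), from 1.01 on chromosome 6 to 1.89 on chromosome 3. Without bins led by 1 partner it was 1.31 ± 0.0247 in the same libraries. With members chosen on the 0.25 h libraries it was 1.27 ± 0.0165 in the 6 libraries of the other times, and with members chosen on the 3 h libraries 1.33 ± 0.0156 (SD, n = 6 each).

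Contacts of members with bins at the opposite end of the ranking, the highest 10% of gene-rich trans share, were depleted. In cis, from the shortest to the longest digestion, they were 0.494 ± 0.00372, 0.465 ± 0.00484, 0.450 ± 0.00428 and 0.387 ± 0.00149 of expected (SD, n = 2 each), and the replicates of different times did not overlap. In trans they were 0.577 ± 0.00814, 0.565 ± 0.00408 and 0.551 ± 0.000444 at 0.25, 1 and 3 h. The trans value at 12 h, 0.475 ± 0.00218, comes from the signal that chose both sets of bins and is a description. Contacts with the bins in between were close to 1 in cis, 1.01 ± 0.00132 at 0.25 h and 0.995 ± 0.00341 at 12 h, and below 1 in trans, 0.907 ± 0.00194 and, as a description, 0.883 ± 0.00961.

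**Figure D5:**
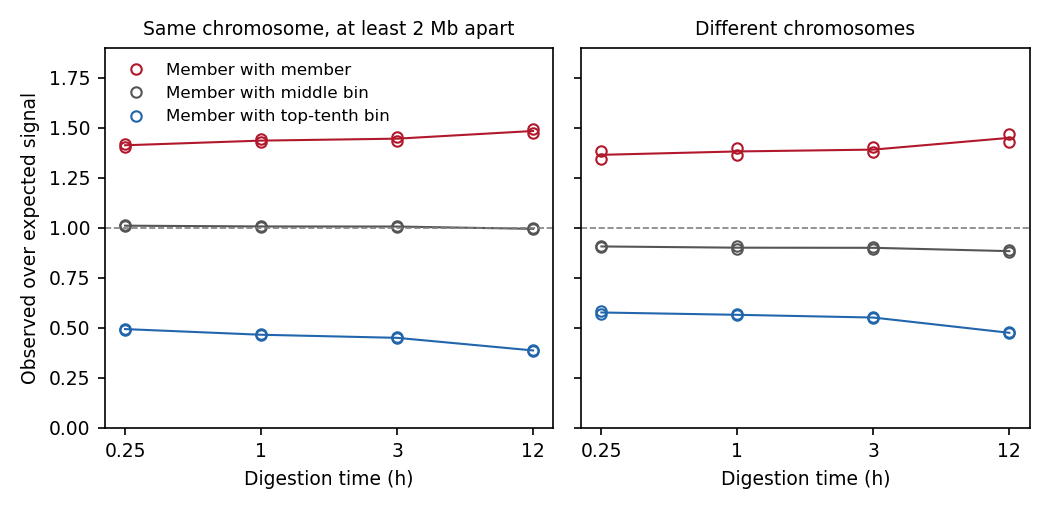
Observed over expected signal (y axis) of members with members, with bins of neither extreme 10% (middle bins) and with bins of the highest 10% of gene-rich trans share, by digestion time, drawn at even steps on the x axes. The left panel holds pairs on the same chromosome at least 2 Mb apart and the right panel pairs on different chromosomes, circles are libraries, lines join means, and the dashed line marks 1. In cis, member pairs lie between 1.40 and 1.50, and pairs with the highest 10% go from 0.494 at 0.25 h to 0.387 at 12 h.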

How the data were processed

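Each deposited file listed pairs of bins with a balanced contact signal, scaled by the authors so that every bin has the same total; per the submitters' processing notes HiC-Pro 2.11.1, Bowtie2 2.3.4.1 and build hg19 were used. Filters are not given in the sources used here. Bin numbers were read as hg19 chromosomes 1 to 22, X, Y and M. Signal in 20 kb bins (second run) or 50 kb bins (first run) was summed to 100 kb. Whole contacts were recovered from the signal, with 99.8% or more of values within 0.05 of a whole number in every file, and used for depth, intervals and 1 alternative.

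Shares were tested with limma 3.58.1 (R 4.3.3; lmFit, eBayes with trend) on log2 values of the 8 libraries, or 6 for the gene-rich trans share with a pseudocount of 1%. Adjusted p-values measure the spread between libraries, which may be technical. Contacts carry no molecular identifiers, so intervals cover counting error only. On simulated data the contact measures returned close to what was planted, and limma was run on planted changes of self share. Those data held no offset shared by a library and no difference between arms, so they test neither. Expected cis signal was the mean over bin pairs at the same distance on the same chromosome. The eigenvector came from correlated observed over expected cis signal at 0.25, 1 and 3 h summed.

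Named bins are the longest block of each chromosome, the 5 lowest shares, the 3 largest called rises and falls of self share (2 rises existed) and 6 of the longest blocks led by 1 partner. The last of these 6 had as many members as a block on chromosome 3 that is not named. The members, lists and tests were chosen with earlier results of these data known. Whether equal replicate numbers pair the libraries is not known. Deviations from the time means correlated with r of 0.04 to 0.12 for self share and 0.00 to 0.05 for trans share. For gene-rich trans share r was -0.01 to 0.01. These correlations over bins cannot show an offset shared by all bins of a library. The median trans share of other bins was higher in replicate 2 than in replicate 1 at each time, with 13.0% against 12.4% at 0.25 h and 13.8% against 13.6% at 12 h. No gene is named for a bin and no sequence is shown, since no hg19 genome or annotation was used here.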

Additional observations from a re-analysis of the deposited data

How the results depend on the processing

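The differences between members and other bins in gene-rich trans share, trans share, self share and cis signal under 1 Mb, and member contacts in cis and trans, kept their direction under the alternatives run; the other differences were not run under all of them. The cause of the shifts below was not tested. Gene-rich trans share of members minus others at 0.25, 1 and 3 h (-2.99 points) was -3.18 with the lowest 20%, -3.22 without each bin's leading partner, -3.37 in the first run, -2.24 in recovered contacts, -3.22 and -3.25 with members chosen on the 3 h or 0.25 h libraries (values that hold the choosing libraries; the 4 unused ones gave -2.87 and -2.76, smaller differences), and -2.90 to -2.91 with 1 of the 12 h replicates left out of the choice. The trans share difference over all 8 libraries (-2.40, the 12 h values a description) was -2.20 with the lowest 5%, -2.79 with 20%, -2.61 without the leading partner, -2.23 in the first run, -2.24 in contacts and -2.56 without bins led by 1 partner. The share of cis signal under 1 Mb (-3.01) was -2.45 with 5%, -3.75 with 20% and -2.62 in contacts. The self share difference (-0.853) was -1.10 in the first run, -1.30 in contacts and -0.348 inside 20 kb bins, and the log2 change of the median self share (-0.46) was -0.53 in contacts and -0.92 inside 20 kb bins.

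Member contacts in cis (1.44) were 1.48 with the lowest 5%, 1.37 with 20%, 1.47 with chromosome 22 added, 1.46 without the leading partner, 1.50 in contacts, 1.48 at 5 Mb and above, 1.38 and 1.33 with members chosen at 3 h or 0.25 h, and 1.39 to 1.40 with 1 replicate of 12 h left out. In trans, over the same 8 libraries (1.40), they were 1.58 with the lowest 5%, 1.22 with 20%, 1.31 without the leading partner, 1.53 in contacts, 1.33 without bins led by 1 partner, 1.34 and 1.28 with members chosen at 3 h or 0.25 h, and 1.31 with 1 replicate left out. These trans values hold the libraries that chose the members and are a description; the 6 libraries not used in each choice gave 1.38 for the members, 1.31 without bins led by 1 partner, and 1.33 and 1.27 with members chosen at 3 h or 0.25 h. Alternatives that leave out bins led by 1 partner, or choose members at 3 h or 0.25 h, were added after seeing the data. Leaving out bins led by 1 partner used the cut at 20% of trans signal. Chromosome 3 members with chromosome 10 as leading partner below that cut remain in those values.

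Trans share calls at 12 h (1299 bins, 54 members) were 864 bins with eBayes without a trend, 5 bins and 0 members in the first run, and 9 to 2349 bins and 0 to 91 members with 1 library left out. Gene-rich trans share calls at 3 h (0 bins) were 0 to 12 with 1 library left out. With the replicate number as a block, 3088 bins and 116 members were called for trans share, 1 bin for gene-rich trans share at 3 h, and 21288 bins for self share at 12 h. Whether the numbers pair the samples is not known. Single bins rest on few contacts with the 4 chromosomes (24 to 73 in the median member per library), so membership of 1 bin is less certain than the medians.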
